A study of Mus musculus with 24 samples.

Results

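Endothelial cell genes were followed in bulk RNA sequencing of mouse sciatic nerve. A list of 36 gene symbols chosen for endothelial expression was looked up in the count table of 24421 genes. All 36 were present: 23 pan-endothelial genes, 4 arterial genes, 4 tip cell genes and 5 barrier genes. Of these, 35 passed edgeR's filter on low counts and were tested, and Esm1 did not pass. The list was drawn from gene function and not from measured values, although earlier results of these data were known when it was proposed.

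All 24 libraries came from Nf1 flox/flox PostnCre+ mice, in which Cre under the Postn promoter removes the floxed Nf1 gene, and the labels give plexiform neurofibroma as the tumour stage. The 4 groups of 6 libraries received vehicle, LY3214996 (an inhibitor of the kinases ERK1 and ERK2), abemaciclib (an inhibitor of the cell cycle kinases CDK4 and CDK6), or abemaciclib with LY3214996, each for 1 week. The groups are called vehicle, ERKi, CDKi and combination below, with libraries numbered 1 to 6 in accession order. No group of nerves with intact Nf1 was analysed here, and age and sex are not among the labels used. The labels do not say whether each library is a separate animal, so p-values measure the spread between these libraries only.

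Endothelial cells line blood vessels. VE-cadherin, PECAM1 and ESAM join them at their contacts, VEGF and angiopoietin receptors (Kdr, Flt1, Tek) pass on growth and survival signals, and transcription factors of the ETS family (Erg, Fli1) and the SOX family (Sox7, Sox17, Sox18) keep their identity. Within a peripheral nerve, the capillaries of the endoneurium form the blood-nerve barrier, whose cells are sealed by claudin 5 and carry efflux and uptake transporters. In bulk RNA, a change in the number of endothelial cells and a change in RNA per cell cannot be told apart.

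Total counts per library ran from 5391543 to 42321550, both extremes in vehicle. Levels are given as CPM, counts scaled to library size, after TMM scaling, and 3 counts correspond to 0.0697 to 0.536 CPM across libraries. ERKi 3, CDKi 1 and CDKi 3 held liver transcripts, with Alb at 3155 CPM or more against at most 1.61 CPM in the other 21 libraries. In 6 libraries (vehicle 1 and 5, CDKi 3 and 5, combination 3 and 5) the mean of 10 neuronal genes was below 6 log2 CPM. Combination 3 had the highest level of all 24 libraries in 25 of the 35 tested endothelial genes, and ERKi 3 had the lowest in 16. Fold changes in the combination are also given without combination 3 where that moves them by over 1.5 times.

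Per kilobase of exon, the highest median in vehicle was that of Ly6c1 (21.01 CPM per kb), a surface antigen of capillary endothelium. Ecscr, a regulator of endothelial movement, had 17.1 CPM per kb. Ecscr departed from Cdh5 in combination 3, where its 16.97 CPM lay below the 25.9 to 38.2 CPM of vehicle while Cdh5 had 109.5 CPM. Combination 2 had Ecscr at 9.58 CPM and Cdh5 at 41.3 CPM. In ERKi 3 Ecscr was at its lowest, 5.76 CPM, with Cdh5 at 22.7 CPM. The mean of Schwann cell genes was at most 8.79 log2 CPM in these libraries and at least 9.10 log2 CPM in all others. Whether Ecscr reads follow Schwann cells was not tested, so its level as an endothelial gene is uncertain. Mfsd2a, a lipid transporter that keeps transcytosis low at the blood-brain barrier, had 16.7 CPM per kb. Cldn5 (9.66 CPM per kb), the efflux pump gene Abcb1a (9.48 CPM per kb) and the organic anion transporter gene Slco1a4 (7.20 CPM per kb) came next, so the 5 barrier genes were among the 6 highest. Cdh5, which encodes VE-cadherin, had 7.19 CPM per kb and Pecam1 6.71 CPM per kb. Plvap, which forms the diaphragms of fenestrated endothelium, had 1.51 CPM per kb. The lowest 4 were Aplnr (0.284 CPM per kb), Gja5 (0.233 CPM per kb), Apln (0.202 CPM per kb) and Esm1 (0.170 CPM per kb). Reads of Ly6c1, Abcb1a and Slco1a4 could be split with close paralogs such as Ly6c2 and Abcb1b, so these levels are uncertain.

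Promoters of the endothelial genes were searched for AGGAAG (or CTTCCT on the other strand), a site of the ETS family to which ERG and FLI1 belong, and ACAATG (or CATTGT), a site of the SOX family. RefSeq windows of 300 bases (250 before to 50 after a start, GRCm38.p6) were held for 21 of the 36 genes, 26 windows in all. AGGAAG was in 15 of these 26 windows (57.7%), which belong to 14 genes, against 35.4% of 32851 windows of the same length genome-wide. ACAATG was in 3 of 26 (11.5%, in Erg, Notch4 and Slco1a4), against 12.6% of all windows. A match is a string of letters, not a measured binding site. The 6 promoters below are those of the described genes with a match and the smallest p in the combination, shown as the 250 bases before a start with matches in capitals. They are Rasip1 (chr7:45627287-45627536, plus strand), Ly6c1 (chr15:75048664-75048913, minus strand), Erg (chr16:95459349-95459598, minus strand), Flt1 (chr5:147726012-147726261, minus strand), Abcb1a (chr5:8566841-8567090, plus strand) and Tie1 (chr4:118489850-118490099, minus strand). Erg has 3 such windows and Ly6c1 has 2, of which 1 each is shown. The Erg window shown lies inside the GENCODE model of the gene, which begins upstream, at position 95586593 on the minus strand. The GENCODE model of Abcb1a begins downstream, at position 8660077. The models of Ly6c1 (75048830), Tie1 (118490061) and Rasip1 (45627488) begin within the windows shown. The 3 Ly6c1 matches lie inside its model, and the Rasip1 and Tie1 matches lie before theirs.
Rasip1: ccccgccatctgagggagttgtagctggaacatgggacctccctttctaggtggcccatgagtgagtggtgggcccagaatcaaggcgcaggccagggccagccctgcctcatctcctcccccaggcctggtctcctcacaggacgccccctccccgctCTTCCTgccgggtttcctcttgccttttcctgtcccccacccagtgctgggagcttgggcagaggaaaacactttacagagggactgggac
Ly6c1: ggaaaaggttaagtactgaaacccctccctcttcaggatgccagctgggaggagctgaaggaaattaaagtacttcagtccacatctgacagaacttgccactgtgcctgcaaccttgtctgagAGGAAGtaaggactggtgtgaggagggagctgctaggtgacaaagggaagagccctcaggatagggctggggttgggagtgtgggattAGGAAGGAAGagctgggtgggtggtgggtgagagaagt
Erg: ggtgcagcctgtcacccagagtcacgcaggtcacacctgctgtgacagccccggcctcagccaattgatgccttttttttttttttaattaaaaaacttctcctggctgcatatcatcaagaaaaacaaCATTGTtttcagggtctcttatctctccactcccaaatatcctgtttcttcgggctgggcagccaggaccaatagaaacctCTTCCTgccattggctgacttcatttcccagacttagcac
Flt1: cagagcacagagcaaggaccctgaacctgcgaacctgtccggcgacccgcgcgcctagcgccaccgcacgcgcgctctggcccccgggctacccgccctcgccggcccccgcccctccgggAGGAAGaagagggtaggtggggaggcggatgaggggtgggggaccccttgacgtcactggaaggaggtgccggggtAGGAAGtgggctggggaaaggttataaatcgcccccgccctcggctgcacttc
Abcb1a: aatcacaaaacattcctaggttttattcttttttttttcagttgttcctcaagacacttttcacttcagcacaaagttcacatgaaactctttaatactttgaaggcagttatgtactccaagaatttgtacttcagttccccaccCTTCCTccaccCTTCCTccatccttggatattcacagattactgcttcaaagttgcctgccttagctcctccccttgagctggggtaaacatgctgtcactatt
Tie1: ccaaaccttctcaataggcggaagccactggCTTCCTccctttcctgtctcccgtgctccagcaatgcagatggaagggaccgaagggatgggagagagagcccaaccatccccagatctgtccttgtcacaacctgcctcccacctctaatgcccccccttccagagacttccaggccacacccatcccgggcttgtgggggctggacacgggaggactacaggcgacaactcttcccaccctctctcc
The Erg window holds 1 match of each family, and the Ly6c1 window holds 3 AGGAAG matches, of which 2 overlap.

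The combination of both inhibitors was compared with vehicle to ask how the vessel genes of the nerve stood under joint treatment. Levels were higher in the combination for 33 of 35 endothelial genes by the sign of the log2 fold change, where 56.4% of all 15385 tested genes were above 0. The median log2 fold change was 0.77, against 0.036 over all tested genes. No endothelial gene passed an adjusted p of 0.05 (quasi-likelihood test of edgeR, Benjamini-Hochberg), where 0.123% of all genes did. An unadjusted p under 0.05 with a higher level was reached by 25 of 35 endothelial genes, against 4.93% of all genes, and a lower level at that p by 0, against 6.58%. The 35 genes were measured in the same libraries and tended to be high or low together, so they are not separate observations of the treatment. DESeq2 called 5 of 34 genes higher (Esam, Rasip1, Sox17, Ly6c1 and Vwf), against 0.541% of the genes to which it gave an adjusted p, and limma-voom with quality weights called 0, with 22 higher at an unadjusted p under 0.05, against 5.77% of all genes in that fit.

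**Figure D1:**
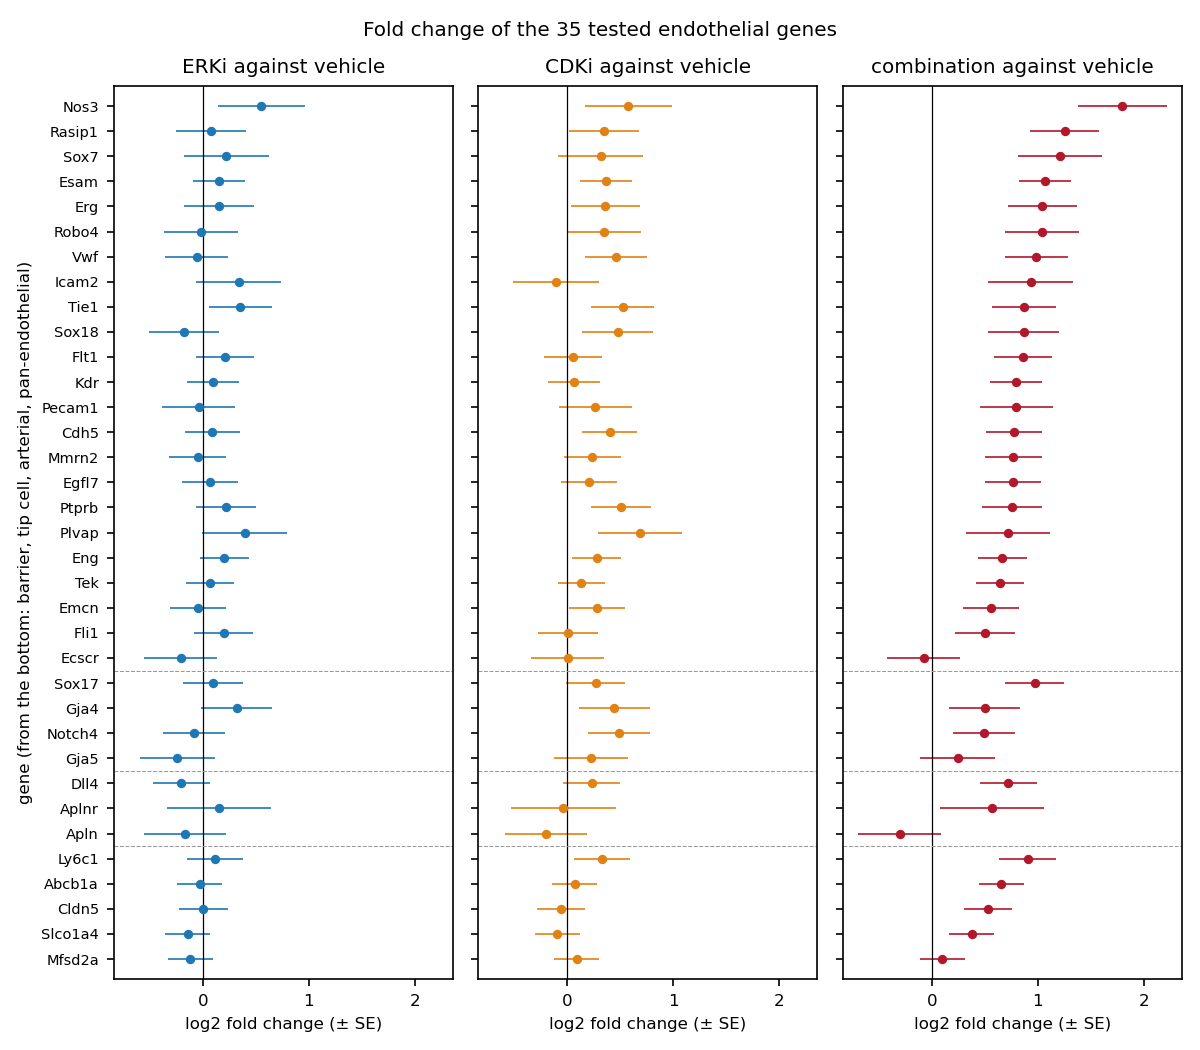
Log2 fold change with its standard error for the 35 tested endothelial genes, each treatment against the same 6 vehicle libraries, grouped by class. In the combination 33 of 35 points lie above 0, with Nos3 highest at 1.80 and Apln lowest at -0.30.

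Esam and Nos3 had the smallest p-values. Esam, an adhesion molecule of endothelial tight junctions, had 7.86, 10.3 and 14.005 CPM (lowest, median, highest, n = 6) in vehicle, medians of 11.5 CPM in ERKi and 13.3 CPM in CDKi, and 11.8, 19.8 and 40.4 CPM in the combination. Of the 6 combination libraries, 5 lay above every vehicle library. The log2 fold change was 1.07 ± 0.25 (SE; edgeR adjusted p = 0.0770), and 0.80 ± 0.22 without combination 3 (adjusted p = 0.143). DESeq2 gave Esam an adjusted p of 0.00555.

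Nos3, the endothelial nitric oxide synthase, had 2.32, 3.24 and 4.26 CPM in vehicle, medians of 4.16 CPM in ERKi and 4.71 CPM in CDKi, and 4.62, 6.41 and 37.8 CPM in the combination. It was the 1 endothelial gene whose combination libraries all lay above all vehicle libraries; 0.279% of all tested genes did so, and 0.578% had all combination libraries below. The highest value came from combination 3, and the next was 6.81 CPM. The log2 fold change was 1.80 ± 0.42 (edgeR adjusted p = 0.0770) and was 0.86 ± 0.20 without that library (adjusted p = 0.0877). DESeq2 returned no p for Nos3.

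Rasip1, which keeps the lumen of a vessel open, had 2.54, 3.80 and 5.27 CPM in vehicle and 3.76, 7.06 and 21.9 CPM in the combination, with 5 of 6 combination libraries above the highest vehicle library. Its log2 fold change was 1.25 ± 0.33 (edgeR adjusted p = 0.120) and 0.77 ± 0.25 without combination 3 (adjusted p = 0.215). Vwf, the clotting factor stored in endothelial granules, had 42.9, 60.3 and 88.4 CPM in vehicle and 67.0, 124 and 229 CPM in the combination (log2 fold change 0.99 ± 0.30, adjusted p = 0.161). Here too 5 of 6 combination libraries exceeded every vehicle library, and combination 4 was the exception.

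**Figure D2:**
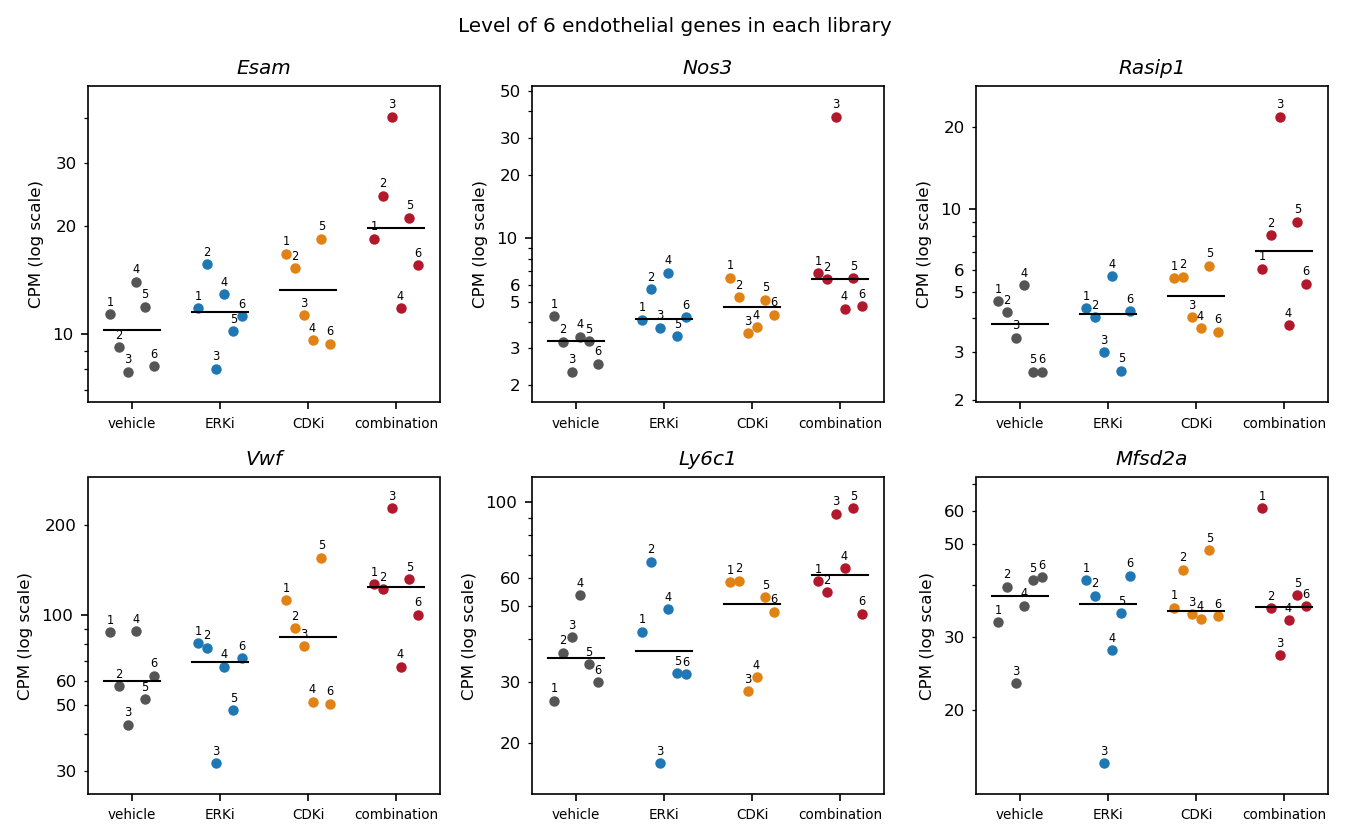
CPM of 6 endothelial genes in each library on a log axis, with the library number beside each point and the group median as a line. Combination 3 stands highest for Esam, Nos3, Rasip1 and Vwf, whereas for Mfsd2a the medians of vehicle (37.6 CPM) and the combination (35.3 CPM) are close.

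Junction genes commonly used to define endothelium had overlapping groups. Pecam1 had 22.7, 41.8 and 64.0 CPM in vehicle and 45.2, 52.2 and 117 CPM in the combination, where 2 libraries stood above every vehicle library (0.80 ± 0.35, adjusted p = 0.362). Cdh5 had 25.4, 30.2 and 38.1 CPM in vehicle and 29.7, 40.2 and 110 CPM in the combination (0.78 ± 0.26, adjusted p = 0.211; 0.41 ± 0.20 without combination 3). Ptprb, the phosphatase that acts on VE-cadherin and TIE2, had 50.2, 59.1 and 84.0 CPM in vehicle and 56.0, 92.4 and 224 CPM in the combination (0.75 ± 0.29, adjusted p = 0.274; 0.39 ± 0.24 without combination 3). In Cdh5 and Ptprb 4 of 6 combination libraries lay above every vehicle library.

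Among the receptors, Kdr, the main VEGF receptor, had 10.2, 13.98 and 18.2 CPM in vehicle and 13.99, 22.2 and 48.9 CPM in the combination (0.80 ± 0.24, adjusted p = 0.170). Flt1, a VEGF receptor that also acts as a decoy, had 15.4, 22.96 and 34.7 CPM in vehicle and 22.7, 42.3 and 88.7 CPM in the combination (0.86 ± 0.27, adjusted p = 0.187). Without combination 3 the values were 0.48 ± 0.20 for Kdr and 0.55 ± 0.24 for Flt1. The angiopoietin receptor gene Tek had 10.4, 17.95 and 23.8 CPM in vehicle and 16.2, 26.1 and 43.7 CPM in the combination (0.64 ± 0.23, adjusted p = 0.236). Tie1, an orphan receptor that partners TEK, had 7.14, 8.80 and 14.03 CPM in vehicle and 10.4, 14.6 and 41.2 CPM in the combination (0.87 ± 0.30, adjusted p = 0.221; 0.44 ± 0.23 without combination 3), and its median was similar in ERKi (13.8 CPM) and CDKi (14.9 CPM). In each of these 4 genes 3 or 4 of the 6 combination libraries stood above every vehicle library.

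Of the transcription factor genes, Erg had 2.75, 3.62 and 6.26 CPM in vehicle and 4.56, 7.92 and 16.3 CPM in the combination (1.04 ± 0.33, adjusted p = 0.179), with 5 of 6 combination libraries above the highest vehicle library. Sox18, which acts in lymphatic and blood vessel formation, had 2.50, 3.83 and 5.30 CPM in vehicle and 4.08, 5.16 and 15.9 CPM in the combination (0.86 ± 0.33, adjusted p = 0.283). For Sox18, 2 of 6 combination libraries cleared the vehicle range, and CDKi had the higher median of 5.76 CPM. Without combination 3 the log2 fold change was 0.77 ± 0.31 for Erg and 0.46 ± 0.29 for Sox18.

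Of the other pan-endothelial genes, Plvap had 1.45, 2.99 and 3.79 CPM in vehicle and 2.02, 4.84 and 7.35 CPM in the combination (0.72 ± 0.40, adjusted p = 0.512), and 2 CDKi libraries (8.78 and 7.46 CPM) stood above the highest combination library. The remaining 9 were Icam2, Eng, Robo4, Fli1, Sox7, Egfl7, Ecscr, Mmrn2 and Emcn. Their vehicle medians ran from 0.712 CPM (Icam2) to 30.0 CPM (Ecscr), and their log2 fold changes from -0.077 (Ecscr) to 1.21 (Sox7), named after their values were seen. Without combination 3 these 9 ran from 0.035 (Ecscr) to 0.76 (Icam2), with Fli1 at 0.16 in place of 0.50 and Sox7 at 0.70. Among ERKi libraries Fli1 was highest in ERKi 3 (35.3 CPM), the library that was lowest in 16 of the 35 genes. ERKi 3 also had the highest ERKi mean of macrophage genes (5.25 log2 CPM). Whether Fli1 reads follow macrophages was not tested. The whole pan-endothelial class had a median of 0.80, with 22 of 23 genes above 0 and 20 of 23 at an unadjusted p under 0.05. Its class mean was 3.01 to 3.81 log2 CPM in vehicle and 3.595 to 5.21 log2 CPM in the combination, so the ranges overlapped.

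**Figure D3:**
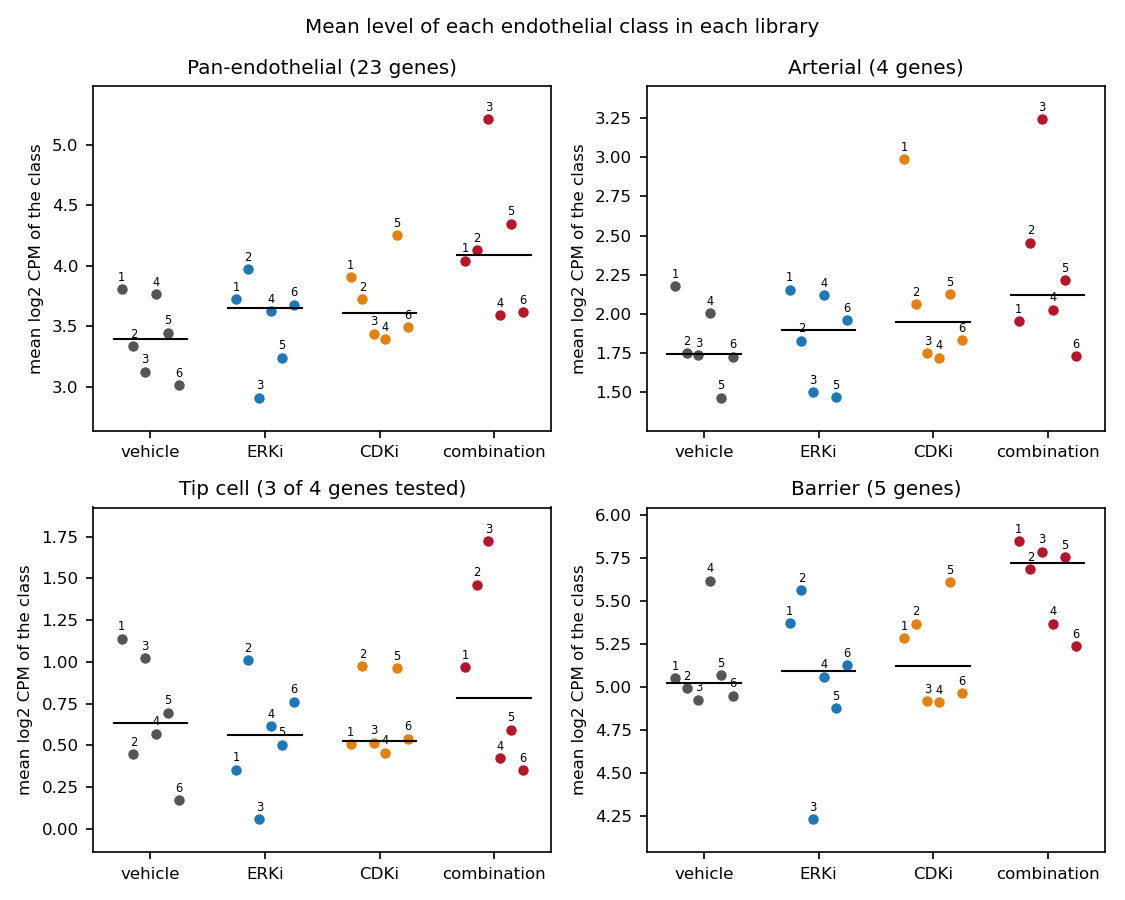
Mean log2 CPM of each endothelial class in every library (points, numbered by library) with the median of each group as a line. Vehicle and combination ranges overlap in all 4 classes; for barrier genes 4 of the combination libraries lie above all vehicle libraries, of which vehicle 4 is the highest at 5.62.

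Arterial genes are those of vessels that carry blood from the heart. Sox17, a transcription factor of arterial identity, had 7.83, 8.79 and 14.4 CPM in vehicle and 8.53, 15.2 and 42.2 CPM in the combination (0.97 ± 0.28, edgeR adjusted p = 0.142; 0.55 ± 0.21 without combination 3). Notch4, the endothelial Notch receptor, had 5.26, 7.51 and 12.1 CPM in vehicle and 6.99, 9.72 and 19.9 CPM in the combination (0.49 ± 0.29, adjusted p = 0.549; 0.25 ± 0.28 without combination 3). The gap junction genes were near 1 to 2 CPM. Gja4 had 0.828, 1.30 and 2.58 CPM in vehicle and 1.01, 2.04 and 3.32 CPM in the combination (0.50 ± 0.34, adjusted p = 0.604; 0.31 ± 0.34 without combination 3). Gja5 had 0.977, 1.34 and 1.61 CPM in vehicle and 0.851, 1.46 and 2.62 CPM in the combination (0.24 ± 0.35, adjusted p = 0.862; 0.039 ± 0.36 without combination 3). The class median was 0.49, with 4 of 4 above 0 and 1 of 4, Sox17, at an unadjusted p under 0.05, and it was 0.28 without combination 3.

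Tip cells lead a sprouting vessel, and their genes were low in level. Dll4, the Notch ligand of tip cells, had 3.22, 4.47 and 5.33 CPM in vehicle, 1.63, 3.24 and 6.36 CPM in ERKi, 2.80, 5.06 and 7.41 CPM in CDKi and 5.22, 7.21 and 9.54 CPM in the combination. Its log2 fold change in the combination was 0.72 ± 0.27 (adjusted p = 0.259), and 4 of 6 combination libraries lay above the vehicle range. The apelin receptor gene Aplnr had 0.467, 1.05 and 1.24 CPM in vehicle and 0.540, 0.748 and 3.67 CPM in the combination: the combination median was the lower one, while 2 high libraries gave a fitted log2 fold change of 0.56 ± 0.49 (adjusted p = 0.730; 0.024 ± 0.46 without combination 3). Apln, its ligand, had 0.384, 0.636 and 2.14 CPM in vehicle and 0.405, 0.690 and 1.01 CPM in the combination (-0.30 ± 0.39, adjusted p = 0.839). Esm1, a proteoglycan gene of sprouting tips, had 1 to 14 counts per library and medians of 0.356, 0.330, 0.237 and 0.260 CPM in vehicle, ERKi, CDKi and the combination. It did not pass the count filter of edgeR, and DESeq2, run without that filter, gave -0.43 ± 0.52 in the combination (unadjusted p = 0.406). Over the 3 tested genes the median was 0.56, and 0.024 without combination 3.

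Barrier genes were higher in the combination by the sign of the fit, 5 of 5, with a median of 0.44 to 0.65 when each library was left out in turn. Ly6c1 had 26.6, 35.2 and 53.7 CPM in vehicle, medians of 36.9 CPM in ERKi and 50.5 CPM in CDKi, and 47.4, 61.6 and 96.0 CPM in the combination. Of the 6 combination libraries, 5 were above the vehicle range (0.90 ± 0.27, adjusted p = 0.148; 0.80 ± 0.28 without combination 3). Abcb1a, the gene of the P-glycoprotein pump, had 46.3, 51.9 and 77.6 CPM in vehicle and 55.7, 87.8 and 129 CPM in the combination (0.66 ± 0.21, adjusted p = 0.191), where 4 of 6 libraries exceeded the vehicle range. Cldn5 had 9.29, 13.7 and 19.3 CPM in vehicle and 13.6, 20.4 and 25.4 CPM in the combination (0.53 ± 0.23, adjusted p = 0.356; 0.54 ± 0.24 without combination 3). Slco1a4 had 40.7, 46.2 and 98.7 CPM in vehicle, the highest from vehicle 4, and 49.8, 72.1 and 85.3 CPM in the combination, none of whose libraries cleared the vehicle range (0.38 ± 0.21, adjusted p = 0.522). Mfsd2a had 23.2, 37.6 and 41.8 CPM in vehicle and 27.1, 35.3 and 61.1 CPM in the combination (0.10 ± 0.21, adjusted p = 0.909), and combination 3 was its lowest combination library. Its log2 fold change was 0.18 ± 0.22 without combination 3. The class median was 0.53, with 5 of 5 above 0 and 3 of 5 at an unadjusted p under 0.05.

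Scaling to Pecam1 in the same library compares the genes with each other rather than with the whole nerve. Of 34 genes, 13 had a higher median log2 ratio to Pecam1 in the combination and 21 a lower one, with a median difference of -0.033. The differences ran from -1.23 (Apln) to 0.50 (Robo4), and the vehicle and combination ranges overlapped for all 34 genes.

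**Figure D4:**
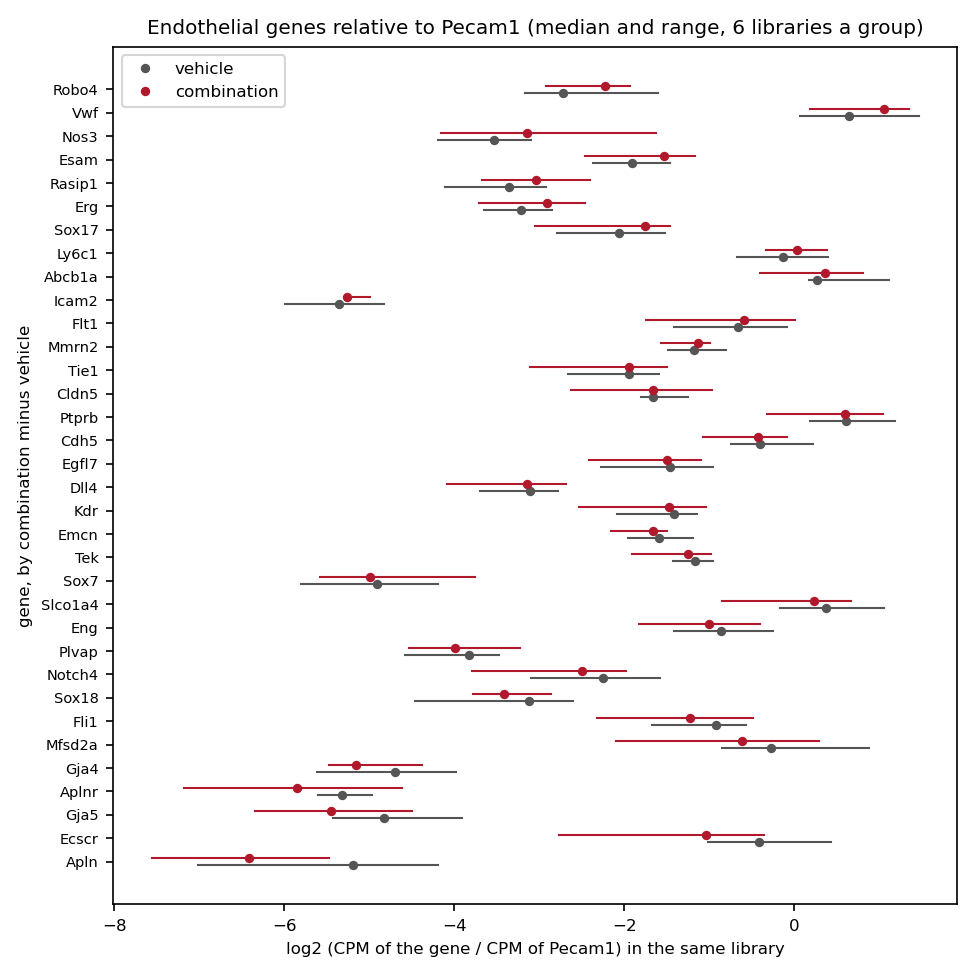
Log2 ratio of each gene's CPM to that of Pecam1 in the same library, as median (point) and range (line) of 6 vehicle and 6 combination libraries. Genes are ordered by the difference of medians, from Apln at the bottom to Robo4 at the top, and the ranges overlap in every gene.

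Markers of other cell types differed beside these genes. In the combination, 12 of 13 adipocyte genes were above 0 by the sign of the log2 fold change (median 0.95), with summed levels of 198 to 391 CPM against 85.4 to 330 CPM in vehicle. That list includes Fabp4 and Pparg, which endothelial cells also express, and of its genes Lep was at 0 in at least 1 vehicle library. Pericyte and smooth muscle genes were above 0 in 7 of 13 (median 0.13; 488 to 946 CPM against 652 to 994 CPM in vehicle), skeletal muscle genes in 14 of 16 (median 2.62; 50.6 to 463 CPM against 50.3 to 130 CPM, with Ckm, Tnnc2 and Mb at 0 in at least 1 library of each group) and neuronal genes in 10 of 10 (median 0.37; 92.6 to 4830 CPM against 67.1 to 3439 CPM). Fibroblast genes were below 0 in 8 of 10 (median -0.63; 4859 to 12757 CPM against 10443 to 17517 CPM), Schwann cell genes in 8 of 11 (median -0.22; 7659 to 25243 CPM against 19866 to 29766 CPM) and macrophage genes in 10 of 12 (median -0.18; 380 to 996 CPM against 645 to 909 CPM). Of the 15 liver genes, 6 were tested and 4 of these were below 0 (median -0.59; 156 to 341 CPM against 273 to 628 CPM), and Alb was at 0 in at least 1 library of both groups. With the adipocyte mean as a covariate, 29 of 35 endothelial genes were above 0, the median was 0.34 and 4 genes were higher at an unadjusted p under 0.05, against 4.59% of all genes in that fit. The part of these cell types in the result was not tested beyond such covariates.

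These counts moved when some libraries were left out. Without combination 3, 34 of 35 genes were above 0, the median was 0.48, and 15 were higher at an unadjusted p under 0.05, against 3.84% of all genes in that fit. Without the 6 libraries low in neuronal genes, 32 of 35 were above 0, the median was 0.43, and 11 were higher at that p, against 2.29%; combination 3 and combination 5 are among these, and their mean endothelial levels (4.77 and 3.98 log2 CPM) were the highest of the 6 combination libraries. Without the 8 libraries with liver transcripts or low neuronal genes, a choice made after seeing the data, the count was 12 (4.10% of all genes) and the median 0.43. Leaving out the shallowest and the deepest library, both vehicle, gave 17 genes (2.70% of all genes) and a median of 0.67.

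**Figure D5:**
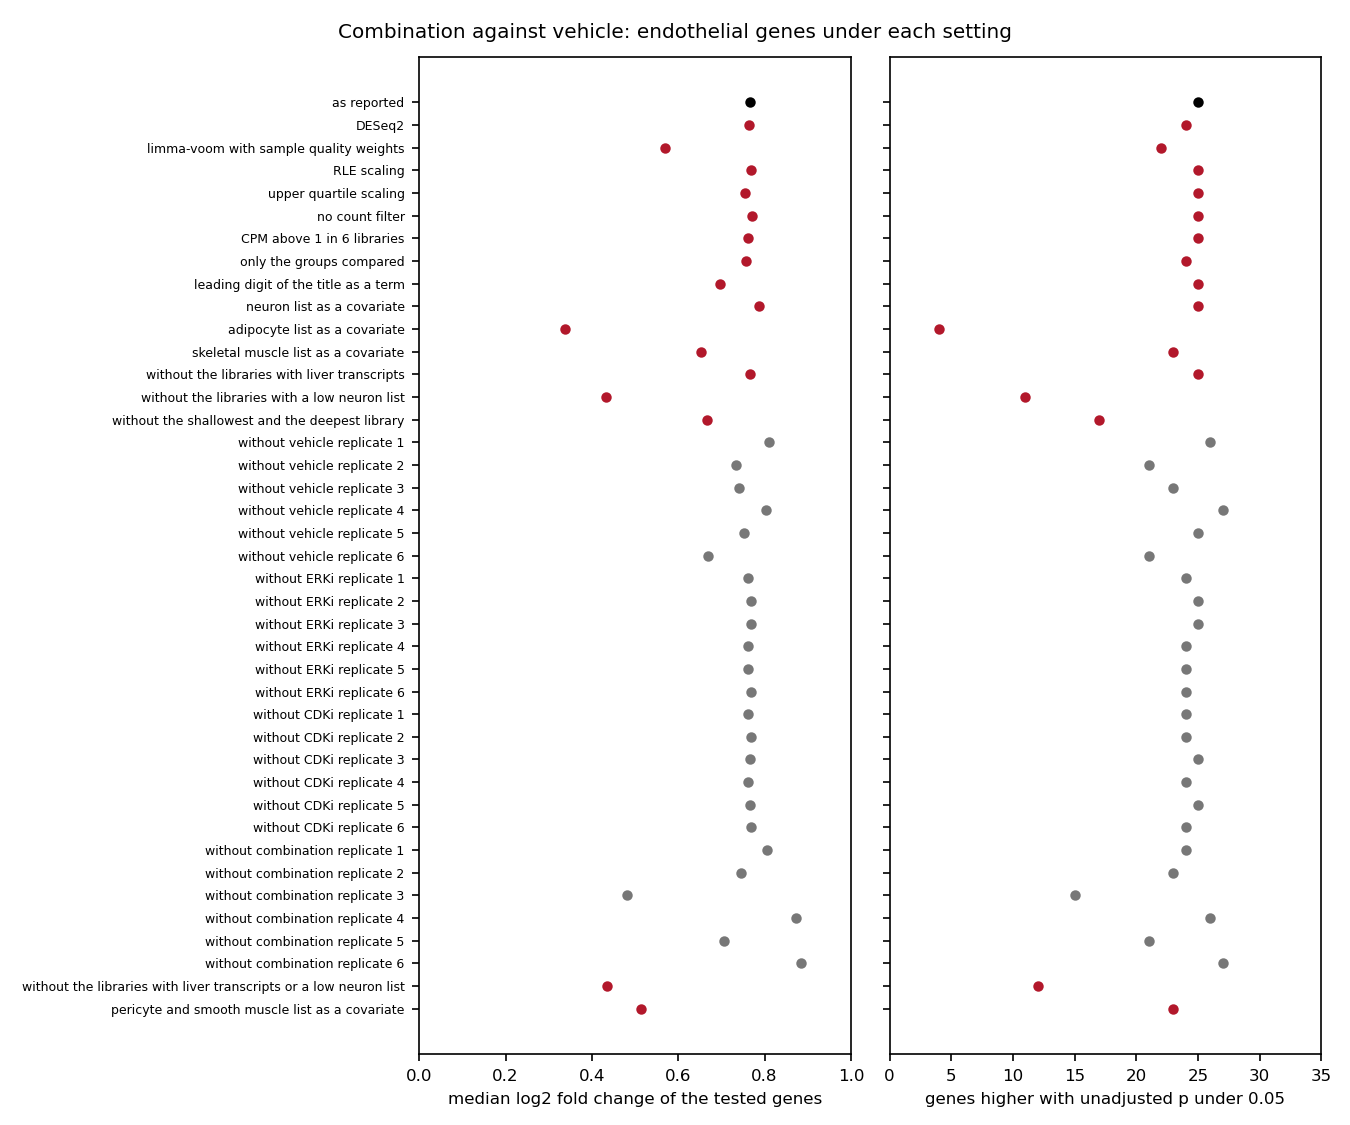
Median log2 fold change of the tested endothelial genes (left) and number with a higher level at an unadjusted p under 0.05 (right), combination against vehicle, as reported (black), with 1 library left out (grey) and under other settings (red). The median lies above 0 throughout, and the count is lowest, at 4, with the adipocyte list as a covariate.

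With the ERK inhibitor alone, no endothelial gene differed from vehicle by more than the spread between libraries at the threshold used. Of 35 genes, 21 were above 0, against 50.04% of all tested genes, and the median log2 fold change was 0.078. In edgeR's quasi-likelihood test 0 endothelial genes passed an adjusted p of 0.05, as did 0% of all genes, and 0 had an unadjusted p under 0.05 (3.43% of all genes higher, 2.91% lower). DESeq2 called 0, where it called 0.0700% of all genes higher, and limma-voom called 0 with 3 higher at an unadjusted p under 0.05 (2.92% of all genes in that fit). The smallest p-values were those of Nos3 (3.42, 4.16 and 6.85 CPM; 0.55 ± 0.41), Tie1 (8.09, 13.8 and 15.7 CPM; 0.35 ± 0.30) and Plvap (1.87, 2.85 and 7.10 CPM; 0.39 ± 0.40). Vehicle and ERKi ranges overlapped for all 35 genes (of all genes, 0.104% were higher and 0.136% lower in every library), and the smallest adjusted p was 0.674. Class medians were 0.099 for pan-endothelial, 0.0077 for arterial, -0.16 for tip cell and -0.028 for barrier genes. Combination 3 is outside this comparison but enters the shared estimate of the spread. Without it, Nos3 in ERKi had 0.55 ± 0.20 (edgeR unadjusted p = 0.011, adjusted p = 0.647). ERKi 3, a library with liver transcripts, was the lowest in pan-endothelial and barrier means; without the 3 liver libraries 28 of 35 genes were above 0, with a median of 0.14. Adipocyte genes were above 0 in 11 of 13 in ERKi (median 0.99; 104 to 330 CPM against 85.4 to 330 CPM in vehicle), and with their mean as a covariate 5 of 35 endothelial genes were above 0, with a median of -0.21.

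With the CDK inhibitor alone, 30 of 35 endothelial genes were above 0, against 48.2% of all genes, with a median of 0.27 against -0.0068. With libraries left out in turn, 27 to 34 were above 0 and the median was 0.12 to 0.37. CDKi 5 was among the 5 highest of 24 libraries in 21 of the 35 genes. It also had the highest CDKi mean of skeletal muscle genes (5.63 log2 CPM, group median 0.14 log2 CPM). CDKi 1 and CDKi 3 held liver transcripts. No gene passed: edgeR's test called 0 endothelial genes and 0% of all genes, and 0 endothelial genes had an unadjusted p under 0.05 (2.21% of all genes higher, 0.910% lower). DESeq2 called 0, where it called 0.325% of all genes higher, and limma-voom called 0 with 2 higher at an unadjusted p under 0.05 (2.23% of all genes in that fit). The smallest p-values belonged to Ptprb (58.4, 75.5 and 140 CPM; 0.51 ± 0.28), Tie1 (8.76, 14.9 and 19.9 CPM; 0.53 ± 0.30) and Plvap (2.34, 2.91 and 8.78 CPM; 0.69 ± 0.40). Every adjusted p was 1.00 to the printed digits, and ranges overlapped with vehicle for all 35 genes (of all genes, 0.0650% were higher and 0.0260% lower in every library). Here too combination 3 enters the shared estimate of the spread. Without it, edgeR's unadjusted p was 0.0067 for Nos3 (0.59 ± 0.20) and 0.025 for Tie1 (0.53 ± 0.22). In that fit it was 0.032 for Ptprb (0.52 ± 0.23) and 0.045 for Cdh5 (0.41 ± 0.19), and none passed after adjustment. Adipocyte genes were above 0 in 13 of 13 (median 1.53; 239 to 538 CPM against 85.4 to 330 CPM in vehicle), and with their mean as a covariate 3 of 35 endothelial genes were above 0, with a median of -0.26. The class medians were 0.32 for pan-endothelial, 0.36 for arterial, -0.036 for tip cell and 0.071 for barrier genes.

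The combination was next set against each single agent. All 3 comparisons with vehicle share the same vehicle libraries, and the comparisons here share the combination libraries. Against ERKi, 34 of 35 endothelial genes were above 0 (48.4% of all genes), with a median log2 fold change of 0.65. edgeR's test called 0 endothelial genes and 0% of all genes and DESeq2 and limma-voom called 0 endothelial genes, where DESeq2 called 0.197% of all genes higher. The smallest adjusted p was 0.392, and 22 had an unadjusted p under 0.05 and a higher level, against 5.73% of all genes (0 lower, against 3.61%); that count was 12 without combination 3 (4.08% of all genes), with a median of 0.40, and 5 (1.34%) without the libraries low in neuronal genes. Against CDKi, 32 of 35 were above 0 (56.2% of all genes), with a median of 0.53. Here edgeR's test called 0 endothelial genes and 0.00650% of all genes, the smallest adjusted p was 0.439, and 15 had an unadjusted p under 0.05, against 2.36% of all genes (0 lower, against 4.71%); DESeq2 and limma-voom called 0, and without combination 3 the count was 3 (1.57% of all genes) and the median 0.28. The barrier class had medians of 0.52 against ERKi and 0.57 against CDKi, and the arterial class 0.036 against CDKi.

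Whether both drugs together gave more than the sum of each was tested as an interaction on the log scale. The interaction term was above 0 for 32 of 35 endothelial genes (49.8% of all genes), with a median of 0.53. edgeR's test called 0 of them and 0% of all genes, 0 endothelial genes had an unadjusted p under 0.05 (1.61% of all genes above 0, 2.09% below), DESeq2 called 0 with 2 above 0 at that p, and the smallest adjusted p was 0.988. The median was 0.018 with limma-voom, 0.20 without combination 3 and 0.080 without the libraries low in neuronal genes. With the adipocyte covariate it was 0.94, and 18 of 35 genes were above 0 at an unadjusted p under 0.05, against 7.29% of all genes in that fit (smallest adjusted p 0.149). With a term for the leading digit of the sample titles 6 genes were, against 1.79%. The adipocyte list itself had an interaction below 0 in 11 of 13 genes (median -1.79), 8 of them at an unadjusted p under 0.05 in edgeR's test. Because the adipocyte covariate holds that opposite term, the count of 18 cannot separate endothelial from adipocyte genes. Their separate parts were not tested. Across all 4 groups, edgeR called 0 of 35 endothelial genes and 0% of all genes for any difference, with 19 at an unadjusted p under 0.05 against 8.14% of all genes. The smallest adjusted p was 0.270, DESeq2 called Esam and Rasip1, against 1.16% of the genes to which it gave an adjusted p, and limma-voom called 0 with 12 at an unadjusted p under 0.05, against 8.94% of all genes.

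Ordered by group medians, the combination was highest in 28 of 35 endothelial genes, and vehicle was lowest in 22. The genes in which another group had the highest median were Tie1, Fli1, Sox18, Notch4, Apln, Aplnr and Mfsd2a. CDKi had the second highest median in 19 genes. In edgeR's test no pair of groups compared differed at an adjusted p of 0.05 in any of these genes.

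Further endothelial lists were read beside the 36 genes in the combination against vehicle, again with 0 genes passing an adjusted p of 0.05 in edgeR's test. Of 23 further pan-endothelial genes, 18 were above 0 (median 0.52). At an unadjusted p under 0.05, 8 were higher and 2 lower, against 4.93% and 6.58% of all genes. The lowest was Cd34 at -1.14, named after its value was seen. Arhgef15 had 2.07, 3.04 and 3.68 CPM in vehicle and 4.36, 6.62 and 18.6 CPM in the combination, groups that did not overlap (1.48 ± 0.31, adjusted p = 0.0508). For Cyyr1 the log2 fold change was 1.13 ± 0.26 (adjusted p = 0.0836). Of 10 further barrier genes, Slc16a1 was lowest at -0.49, also named after its value was seen. In all, 8 of the 10 were above 0 (median 0.38), with 4 higher and 1 lower at an unadjusted p under 0.05. Among these Lef1, a transcription factor of the Wnt pathway that maintains the brain barrier, had 4.11, 5.62 and 9.15 CPM in vehicle and 7.17, 10.97 and 23.1 CPM in the combination (1.07 ± 0.25, adjusted p = 0.0770). The efflux pump gene Abcg2 had 57.8, 70.5 and 79.1 CPM in vehicle and 83.6, 93.5 and 100.3 CPM in the combination, which did not overlap (0.42 ± 0.11, adjusted p = 0.127). As for Arhgef15, every combination library was higher, which held for 0.279% of all tested genes.

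Other vessel types were mixed. Of 8 further arterial genes 5 were above 0 (median 0.29), with the chemokine gene Cxcl12 at 0.91 ± 0.24 (adjusted p = 0.123) and the Notch ligand gene Jag2 at 1.14 ± 0.32 (adjusted p = 0.138). Of 5 venous genes 4 were above 0 (median 0.34), with the leukocyte adhesion gene Selp at 1.81 ± 0.76 (adjusted p = 0.343) and the venous factor gene Nr2f2 at 0.33 ± 0.17 (adjusted p = 0.480). Of 5 tested lymphatic genes 2 were above 0 (median -0.25): the receptor gene Flt4 was at 1.15 ± 0.32 (adjusted p = 0.137) and Lyve1, which macrophages also express, at -0.95 ± 0.30 (adjusted p = 0.191). Of 6 angiogenic ligand genes 4 were above 0 (median 0.047), with Vegfa at 0.47 ± 0.24 (adjusted p = 0.465) and Vegfb at -0.10 ± 0.13 (adjusted p = 0.833).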

How the data were processed

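Whole sciatic nerve RNA was sequenced in 24 libraries. Per the labels' protocols, total RNA was column-purified and made into libraries after ribosomal RNA removal. The molecule label reads polyA RNA instead, and which of these holds was not settled. The authors deposited raw counts per gene; FastQC, STAR and DESeq2 and the build mm10 are named in the submitters' processing notes, while no source used here gives the counting tool, the annotation, tool versions or strandedness. Depth was 5391543 to 42321550 counts per library.

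From the deposited counts, genes passing edgeR's filterByExpr were tested (15385 of 24421) in R 4.3.3 with edgeR 4.0.16: TMM scaling and a robust quasi-likelihood fit over all 24 libraries (20 residual degrees of freedom, biological coefficient of variation 35.9%), with Benjamini-Hochberg adjustment over all genes tested and a threshold of 0.05. CPM values use the same scaling. DESeq2 1.42.0 and limma 3.58.1 (voom) were alternatives, as were other scalings, filters, covariates and libraries left out. The edgeR fit was tested on simulated data. Liver libraries had Alb above 100 CPM. Exon lengths come from GENCODE M21 and promoters from RefSeq.

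Named genes were a fixed set of 24 symbols plus the 3 members with the smallest p in each comparison with vehicle, and 2 genes of each further endothelial list. Cd34 and Slc16a1 were added later as the lowest of their lists. Members, lists and tests were chosen with earlier results of these data known, so no list is independent support. Esm1 failed the count filter.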

Additional observations from a re-analysis of the deposited data

Results flagged for a closer look

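Sets of 6 values were checked in each group: the 35 tested genes, the 4 class means and the mean over all tested endothelial genes. In 23 of 160 such sets, 1 library stood apart from the other 5 by Dixon's gap criterion. Normal values meet it in about 1 of 20 sets. That rate need not hold here, since genes were read as CPM without a log and share the same libraries. On the log scale the pan-endothelial mean of combination 3 (5.21, next 4.35 log2 CPM) was not flagged. Of the 23, 11 were in combination 3, all of them high. There Nos3 had 37.8 CPM against 6.81 CPM in the next library, Tie1 41.2 against 16.2 CPM, Rasip1 21.9 against 9.03 CPM and Sox17 42.2 against 17.8 CPM. Ptprb had 223.8 CPM (next 112.6 CPM), Cdh5 109.5 CPM (next 55.4 CPM), Kdr 48.9 CPM, Egfl7 47.9 CPM, Robo4 30.5 CPM, Erg 16.3 CPM and Sox18 15.9 CPM.

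CDKi 5 stood apart in 4 genes, with Slco1a4 at 79.2 CPM, Cdh5 at 68.1 CPM, Kdr at 22.98 CPM and Erg at 11.2 CPM. Vehicle 4 was high for Slco1a4 (98.7 CPM, next 52.0 CPM), Abcb1a (77.6 CPM) and the mean of the barrier genes (5.62 log2 CPM). Vehicle 1 was high for Sox17 (14.4 CPM) and Gja4 (2.58 CPM), CDKi 1 for Gja4 (3.88 CPM) and the mean of the arterial genes (2.99 log2 CPM), and combination 1 for Mfsd2a (61.1 CPM). CDKi 5, vehicle 1 and combination 3 are low in neuronal genes, and CDKi 1 holds liver transcripts.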

How the results depend on the processing

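The call of 0 endothelial genes in edgeR's test held in each comparison under the alternatives run, except in the combination against vehicle and in the test of any difference. In the combination against vehicle DESeq2 called 5, and 1 (Esam) was called with the neuronal mean as a covariate, without the liver libraries, and with the pericyte and smooth muscle mean as a covariate, the last chosen after seeing the data; with libraries left out in turn the count was 0 to 1, the 1 without vehicle 4. For any difference DESeq2 called 2. With the adipocyte mean as a covariate, median log2 fold changes moved by more than the spread between libraries: in CDKi to -0.26 for all genes, -0.35 for pan-endothelial and -0.45 for barrier genes, and in the combination to 0.34 for all genes, -0.14 for tip cell and 0.25 for barrier genes. The tip cell median in the combination was 0.024 to 0.73 with libraries left out in turn, lowest without combination 3. Of 600 recomputed medians, 593 moved less than that spread.

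Across 1040 recomputed values of single genes in each comparison with vehicle, the sign changed in 78 for ERKi, 60 for CDKi and 9 for the combination. No paired analysis was possible because the labels carry no replicate numbers. Genes of about 1 CPM or less (Icam2, Sox7, Gja5, Apln, Aplnr, Esm1) rest on few counts in the shallow libraries. In vehicle 3, Icam2 had 3 counts and Sox7 had 4.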
